A study of Mus musculus with 3 samples.

Results

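Paneth cells sit at the base of small intestinal crypts and release granules of antimicrobial proteins into the lumen. Besides alpha-defensins they make lysozyme (Lyz1), the protease matrilysin (Mmp7), mucosal pentraxin 2 (Mptx2), angiogenin 4 (Ang4), intelectin 1 (Itln1), group IIA secreted phospholipase A2 (Pla2g2a) and hyaluronan-binding protein 2 (Habp2). These 7 genes, chosen by name for their link to Paneth cells, were followed along the mouse gut, and all 7 were among the 24346 genes listed. Expression had been measured by RNA sequencing of epithelial cells shaken off the upper small intestine, the lower small intestine and the large intestine with EDTA. Each region gave 1 library, so no difference below has a replicate check, and no p-value or SD was computed. The upper library alone has a strain entry, CRC mouse model MC38, while no strain is given for the lower and large libraries. Should the entry hold, region and strain differ together wherever the upper library is used, and their effects cannot be told apart. No label gives a genotype, treatment, age or number of animals, no cell sorting is described, and the sample names of all 3 begin with SPFm.

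In healthy mice the large intestine has few or no Paneth cells, and some of the 7 products are also made by other epithelial cells. Lysozyme cuts bacterial cell walls, and Ang4, a secreted ribonuclease, and Pla2g2a, which hydrolyses bacterial membrane lipids, also act on microbes. Itln1 and Mptx2 belong to lectin and pentraxin families, which bind sugars or other structures on microbes. Mmp7 is the enzyme that cuts mouse pro-alpha-defensins into their active form, and Habp2 is a serine protease known mainly from blood plasma.

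The values are taken as FPKM, which divides reads by transcript length and library size, so levels of different genes can be set side by side. Judged from the steps between low values, a transcript of 2 kb at 1 FPKM had about 14.5 reads in the upper, 21.7 in the lower and 16.7 in the large library. The epithelial marker Epcam was at 666 FPKM in the upper, 879 FPKM in the lower and 806 FPKM in the large library. The 6 markers of stroma, endothelium and smooth muscle summed to 3.87, 6.02 and 3.49 FPKM in the same order. Regional markers fitted the labels: Gata4 was at 58.3, 16.1 and 0.137 FPKM, Fabp6 at 0.416, 7245 and 38.3 FPKM, and Hoxb13 was at 236 FPKM in the large library and listed at 0 in the others. Of 12 alpha-defensin genes used as Paneth cell markers, 3 were listed at 0 in every library. The other 9 summed, with them, to 18283 FPKM in the upper, 21842 FPKM in the lower and 18.8 FPKM in the large library.

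Summed over the 7 genes, the level was 7282 FPKM in the upper small intestine, 8088 FPKM in the lower small intestine and 28.4 FPKM in the large intestine. This was 1.05%, 1.25% and 0.00544% of all FPKM in the same order. Both small intestinal libraries held high and similar sums, and the large intestinal library held a small remainder. In bulk samples, fewer cells of a type and less RNA per cell cannot be told apart.

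**Figure D1:**
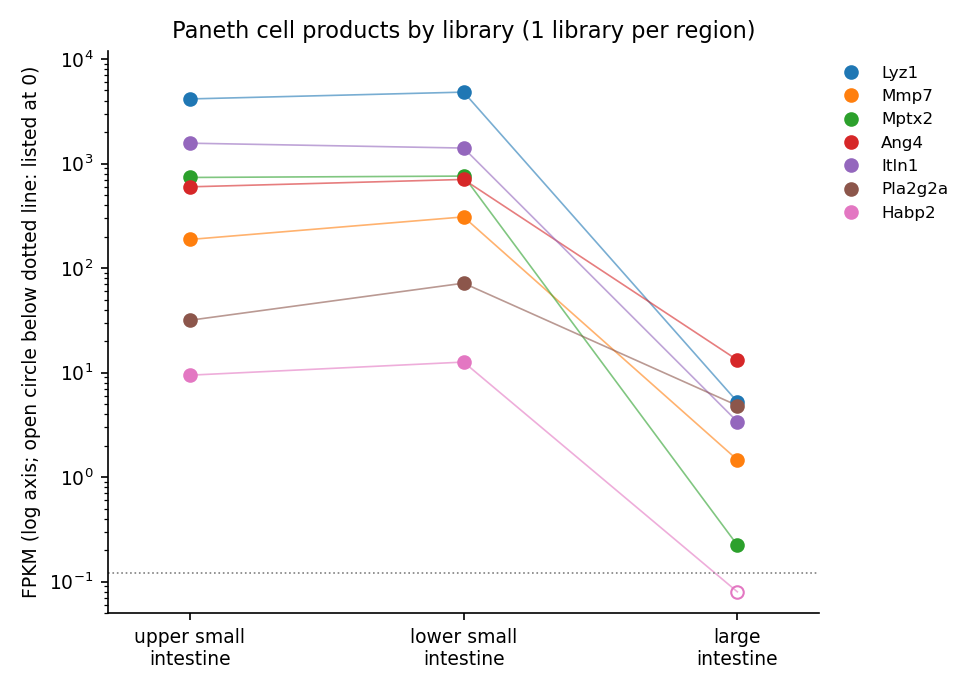
Level of each of the 7 genes in the upper small intestinal, lower small intestinal and large intestinal library, in FPKM on a log axis, with 1 point per library and lines joining the values of a gene. The open circle below the dotted line stands for Habp2, which was listed at 0 in the large library, and the order from Lyz1 down to Habp2 in the small intestine is not kept in the large intestine, where Ang4, at 13.2 FPKM, is highest.

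The question of the first comparisons is how the small intestinal epithelium differs from the large. Calls were made on size alone, with no test: a gene counted as higher or lower when log2(FPKM + 1) differed by at least 1, a 2-fold ratio of FPKM + 1. This scale understates differences of low genes. Among 12350 genes measured at 1 FPKM or more in the upper or large library, 11.7% were called higher in the upper library, and all 7 members were among them. Among 12376 genes measured in the lower or large library, 10.5% were called higher in the lower library, again with all 7 members. The median member difference was 6.26 for upper minus large and 6.97 for lower minus large, against medians over all measured genes near 0. The 2 comparisons share the large intestinal library. When every library was rescaled to the same FPKM sum, the all-gene medians moved to -0.36 and -0.27 on the log2 scale, and the share of calls that were higher moved from 51.0% to 31.0% and from 51.8% to 36.0%, while all 7 members were still called higher.

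**Figure D2:**
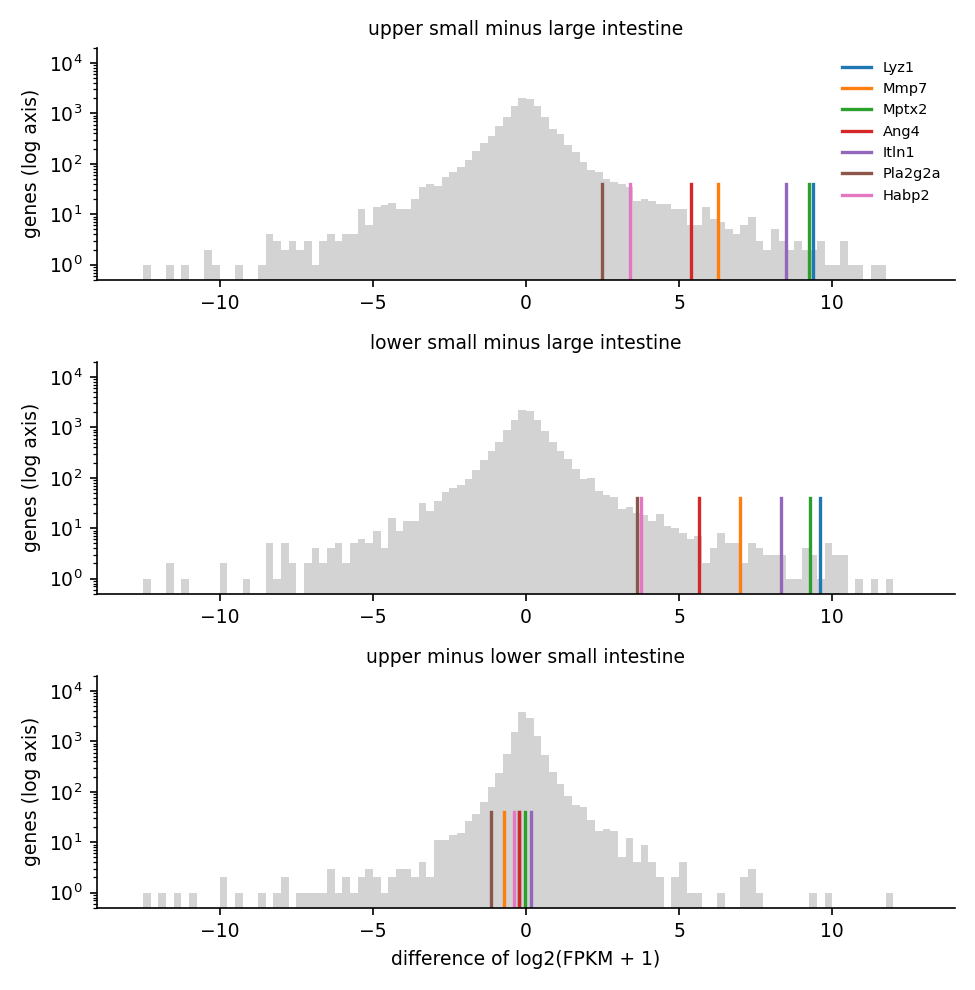
Histograms of the difference of log2(FPKM + 1) over all measured genes (grey, number of genes on a log axis) with the 7 members as coloured lines, whose height has no meaning. In the upper and middle panels (upper small and lower small minus large intestine) all members lie to the right of 2, and in the bottom panel (upper minus lower small intestine) they lie between -1.15 and 0.15.

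Markers of some other cells moved with this difference, and those of others did not. The 4 T cell markers with values summed to 427 FPKM in the upper, 393 FPKM in the lower and 7.50 FPKM in the large library, and all 4 were called higher in both small intestinal libraries. Of 4 markers of B and plasma cells, 3 were listed at 0 in the large library, and the list summed to 29.3, 26.8 and 0.097 FPKM in the same order. Jchain made up most of this, at 28.1 FPKM in the upper and 22.5 FPKM in the lower library. Only 1 of the 4 was measured for upper against large, and 3 for lower against large. The 7 goblet cell markers summed to 7631, 10090.0 and 9691 FPKM, so that the large library was not the lowest for these. Nor was it the lowest for enteroendocrine (159, 64.2 and 98.5 FPKM) or tuft cell markers (2.995, 2.364 and 2.495 FPKM). Of the 3 tuft cell markers only Trpm5 reached 1 FPKM, so these sums are too low to rank the libraries. For markers of macrophages and neutrophils the large library was not the lowest by sum either (12.6, 24.1 and 17.4 FPKM). Most of its sum was Cd14, at 5.61, 6.07 and 15.7 FPKM in the upper, lower and large libraries. Of 3 markers measured for upper against large, 1 was called higher and 1 lower in the upper library. Of 5 measured for lower against large, 3 were called higher and 1 lower in the lower library. The 4 markers of crypt base columnar cells, the intestinal stem cells, summed to 616 FPKM in the upper, 429 FPKM in the lower and 19.4 FPKM in the large library, with 2 of the 4 called higher in the upper and 1 in the lower than in the large library. Most of the small intestinal sums came from Olfm4, at 579, 396 and 0.305 FPKM in the upper, lower and large libraries, while Lgr5 was at 3.68, 5.02 and 3.78 FPKM. The part of these cells in the members' levels was not tested.

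Lyz1 was the most abundant member in the small intestine, at 4151 FPKM in the upper and 4824 FPKM in the lower library, against 5.26 FPKM in the large library. It ranked 12th highest of all genes in the upper, 8th in the lower and 8479th in the large library. The upper to large ratio was 789 (603 to 1037) and the lower to large ratio was 917 (701 to 1205). Brackets here and below hold 95% Clopper-Pearson intervals from reads implied by the low values, and they cover counting error alone. Lyz1 lies on chromosome 10 at 117287797 to 117292868 (mm10, minus strand), in 4 exons, 5476 bp from Lyz2, the lysozyme gene of macrophages. Lyz2 was low throughout, at 5.47 FPKM in the upper, 7.72 FPKM in the lower and 1.16 FPKM in the large library. The 2 coding sequences are identical at 422 of 444 bases, and 16.1% of the 50-base windows of the Lyz1 transcript also occur in Lyz2. How such reads were shared out is not given in the sources used here, so the low Lyz2 values, and the 5.26 FPKM of Lyz1 in the large library, are uncertain.

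Mmp7, on chromosome 9 at 7692090 to 7699585 (plus strand, 6 exons), was at 188 FPKM in the upper and 309 FPKM in the lower library, against 1.47 FPKM in the large library. Its upper to large ratio was 128 (75.3 to 243) and its lower to large ratio 211 (124 to 399), resting on about 13 implied reads in the large library. The overlapping antisense gene AV064505 was listed at 0, 2.68 and 0 FPKM in the upper, lower and large libraries, so it could add little to Mmp7 even if strand was not used in counting. Among the other metalloproteinase genes, the membrane-bound Mmp14 and Mmp15 ran the other way. Mmp15 was at 6.10 FPKM in the upper and 4.11 FPKM in the lower library, against 30.7 FPKM in the large library. Mmp14 was at 11.6 FPKM, 6.90 FPKM and 22.7 FPKM in the same order, and passed the size rule against the lower library alone.

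Mptx2 had the highest FPKM ratios to the large library among the 6 members with a value there, with intervals that overlapped those of Lyz1, and on the log2(FPKM + 1) scale its upper minus large difference, 9.23, was below that of Lyz1, 9.37. It was at 736 FPKM in the upper and 759 FPKM in the lower library, against 0.224 FPKM in the large library, a value that stands for about 1 read. The upper to large ratio was 3287 (878 to 193260) and the lower to large ratio 3387 (904 to 199144), so only their lower ends are well bounded. Mptx2 lies on chromosome 1 at 173274382 to 173277777 (minus strand, 2 exons). Its paralogue Mptx1, on the same chromosome at 174330518 to 174332873 (plus strand), had the opposite pattern, at 1.69 FPKM in the upper and 2.40 FPKM in the lower library, against 3341 FPKM in the large library. The 2 pentraxins thus changed places between the small and the large intestine. Their coding sequences are close, with 604 of 657 bases identical (91.9%), and 18.0% of the 50-base windows of Mptx2 also occur in Mptx1. The first 120 coding bases, shown because reads from them could hardly be assigned, differ at 1 base, which is in capitals, as are the differing bases in the lines after them.
Mptx2, coding bases 1 to 120: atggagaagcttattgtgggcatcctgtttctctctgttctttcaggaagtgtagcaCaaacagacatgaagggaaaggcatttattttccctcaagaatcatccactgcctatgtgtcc
Mptx1, coding bases 1 to 120: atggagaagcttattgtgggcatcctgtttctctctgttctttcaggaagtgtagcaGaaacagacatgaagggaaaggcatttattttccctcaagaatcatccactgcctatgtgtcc
Bases 180 to 299 are the 120-base stretch with the most differences, 16, and show where reads can tell the genes apart.
Mptx2, coding bases 180 to 299: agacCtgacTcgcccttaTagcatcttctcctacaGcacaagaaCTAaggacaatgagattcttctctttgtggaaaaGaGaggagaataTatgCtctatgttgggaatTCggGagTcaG
Mptx1, coding bases 180 to 299: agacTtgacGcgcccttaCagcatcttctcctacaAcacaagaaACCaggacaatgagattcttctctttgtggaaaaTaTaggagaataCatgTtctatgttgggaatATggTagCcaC
These sequences are from the GENCODE M21 transcripts (GRCm38, the assembly of mm10). In each library the lower of the 2 genes was at most a few FPKM beside a far more abundant relative, and the part of the other gene's reads in these low values was not tested.

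Ang4, on chromosome 14 at 51763878 to 51773590 (minus strand, 2 exons), was at 599 FPKM in the upper and 705 FPKM in the lower library, against 13.2 FPKM in the large library. In the large intestine it was the highest of the 7. Its upper to large ratio was 45.3 (36.4 to 57.8) and its lower to large ratio 53.3 (42.9 to 67.9). The related ribonuclease genes Ang and Rnase4, which overlap each other on the same strand, did not share this pattern. Ang was at 19.0, 26.4 and 27.1 FPKM in the upper, lower and large libraries. Rnase4 was at 34.4 FPKM in the upper library and 60.4 FPKM in the lower library, against 85.3 FPKM in the large library, and was called lower in the upper than in the large library. Rnase1 was at 30.6, 7.28 and 0.572 FPKM, called higher in both small intestinal libraries. Ang2, Ang5 and Ang6 were listed at 0 in every library, although 4.70% of the 50-base windows of Ang4 also occur in Ang2 or Ang5.

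Itln1, on chromosome 1 at 171518122 to 171535294 (minus strand, 8 exons), was at 1566 FPKM in the upper and 1407 FPKM in the lower library, against 3.396 FPKM in the large library. It was the second most abundant member in the small intestine, and the one member higher in the upper than in the lower library. Its upper to large ratio was 461 (264 to 893) and its lower to large ratio 414 (237 to 802). Reads were implied from its shortest transcript, 422 nt against 1141 nt for its longest, so these intervals may be too wide.

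Pla2g2a was at 31.7 FPKM in the upper and 71.8 FPKM in the lower library, against 4.84 FPKM in the large library. Its ratios to the large library, 6.55 (3.93 to 11.1) for the upper and 14.8 (9.20 to 24.5) for the lower library, were the smallest of the 6 members with a value there. Pla2g2a lies on chromosome 4 at 138831857 to 138835186 (plus strand). GENCODE M21 calls it a polymorphic pseudogene and RefSeq a transcribed pseudogene in the C57BL/6J reference, since that strain carries a disrupted copy, so its transcript level says nothing of protein in such mice. Pla2g5, on the opposite strand, overlaps it and was at 8.52, 16.6 and 9.26 FPKM in the upper, lower and large libraries. Whether strand was used in counting is not given in the sources used here, and the part of Pla2g5 reads in the Pla2g2a values was not tested. Pla2g5 was thus also highest in the lower library, while the other secreted phospholipase genes named here peaked elsewhere. Pla2g10 was at 1.24 FPKM in the upper and 3.94 FPKM in the lower library, against 57.0 FPKM in the large library, and Pla2g2f was at 5.74, 10.1 and 18.3 FPKM in the same order. Pla2g12b ran the other way, at 62.9, 40.8 and 2.67 FPKM. Pla2g1b, at 1.10 FPKM in the upper library and listed at 0 in the others, and Pla2g2c, listed at 0 in the upper library and at 0.238 and 1.24 FPKM in the lower and large libraries, passed the size rule at very low levels.

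Habp2 was the lowest member, at 9.45 FPKM in the upper and 12.6 FPKM in the lower library, and it was listed at 0 in the large library. A listed 0 can be a failed estimate, so no ratio to the large library is given. The log2(FPKM + 1) differences were 3.39 for upper minus large and 3.77 for lower minus large. Habp2 lies on chromosome 19 at 56287137 to 56320822 (plus strand) and overlaps Nrap on the opposite strand, which was at 0.763, 1.06 and 4.28 FPKM in the upper, lower and large libraries. Hgfac, a related protease that activates hepatocyte growth factor, was at 12.1 FPKM in the upper and 17.7 FPKM in the lower library, against 88.8 FPKM in the large library.

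A list of 33 relatives of the members, 32 of them in the files, was counted as a whole. For upper against large, 16 relatives were measured, with 4 called higher and 7 called lower (median -0.70), beside 11.7% higher and 11.2% lower over all measured genes. For lower against large, 15 were measured, with 3 called higher and 5 called lower (median -0.49), beside 10.5% higher and 9.75% lower over all measured genes. Between the upper and lower libraries 2 of 15 were higher and 1 was lower in the upper (median -0.34). Over all measured genes, 3.92% were higher and 2.92% lower in the upper than in the lower library. With equal sums, of 15 relatives 3 were higher and 8 lower for upper against large (median -1.30), and 3 were higher and 7 lower for lower against large (median -0.80). The shares over all measured genes then were 8.01% higher and 17.8% lower (median -0.36) in the first comparison. In the second they were 8.01% higher and 14.2% lower (median -0.27).

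Ang4, Pla2g2a and Mmp7 stood higher relative to Lyz1 in the large intestine than in the small. Proportions within a library do not depend on how libraries were scaled to each other. Ang4 stood at 14.4% of Lyz1 in the upper library and 14.6% in the lower library, against 251% in the large library. The ratio of these proportions was 0.0574 for upper over large (0.0404 to 0.0832) and 0.0582 for lower over large (0.0410 to 0.0842), with exact conditional 95% intervals for counting error. Pla2g2a stood at 0.763% and 1.49% of Lyz1 in the upper and lower libraries, against 92.0% in the large library, and Mmp7 at 4.53% and 6.40%, against 27.8%. For both genes the interval of the ratio of proportions lay below 1 in each comparison. Itln1 stood at 37.7% of Lyz1 in the upper and 29.2% in the lower library, against 64.6% in the large library. The interval for Itln1 included 1 for upper over large (0.311 to 1.21) and lay below it for lower over large (0.241 to 0.933). Both intervals rest on reads implied from the shortest Itln1 transcript and may be too wide, so whether the first includes 1 is uncertain. Mptx2 was at 17.7% and 15.7% of Lyz1 in the upper and lower libraries, against 4.26% in the large library, where its count was about 1 read. Its interval began just above 1 for upper over large (1.08 to 251) and included 1 for lower over large (0.954 to 223). Habp2, listed at 0 in the large library, has no such ratio. All these proportions in the large library share Lyz1 at 5.26 FPKM, a value that is uncertain because of sequence shared with Lyz2. The part of Pla2g5 reads in Pla2g2a was not tested here either.

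The alpha-defensin genes give the range of that decrease for other Paneth cell transcripts. The sum over the 12 listed genes in the large library was 0.103% of that in the upper and 0.0863% of that in the lower library. Of the 9 alpha-defensin genes with a value in the small intestine, 3 were listed at 0 in the large library. The other 6 had between 0.0166% and 0.689% of their upper level, and between 0.0400% and 0.231% of their lower level, left in the large library. Lyz1, at 0.127% and 0.109%, lay within both ranges. Itln1, at 0.217% and 0.241%, and Mptx2, at 0.0304% and 0.0295%, lay within the first range, with Itln1 just above and Mptx2 just below the second. Their intervals for the lower library, 0.125% to 0.422% for Itln1 and 0.000502% to 0.111% for Mptx2, both reached into the second range. The 3 defensins listed at 0 in the large library are outside these ranges and lie below Mptx2. Mmp7 had 0.780% and 0.474%, Ang4 2.21% and 1.87%, and Pla2g2a 15.3% and 6.75% of its upper and lower levels left in the large library, all above the range of the defensins. For Mmp7 the interval of the first of these, 0.411% to 1.33%, reached into that range. The top of both ranges was Defa5, at only 0.512 FPKM in the large library. Its ratio intervals began at 31.9 for upper to large and 96.4 for lower to large. The ratios of Mmp7 (128 and 211) and the upper to large ratio of Ang4 (45.3) lay above these ends. For them the place outside the defensin range is thus not firm. Single alpha-defensin values are less certain than their sum, because many of these genes are nearly identical and reads could be shared out wrongly.

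**Figure D3:**
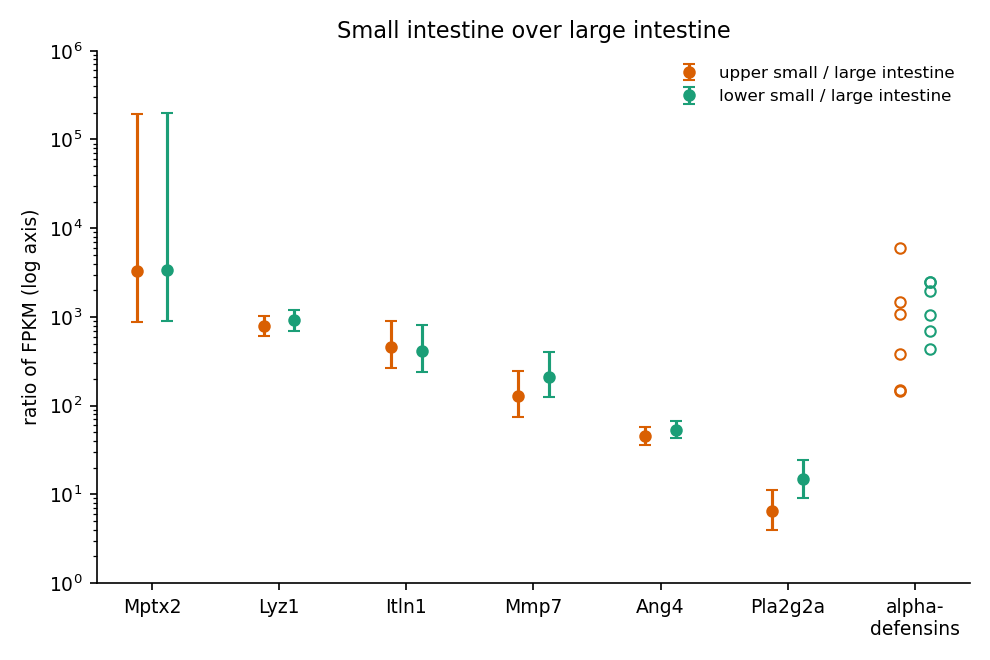
Ratio of FPKM in the upper small intestine (orange) and the lower small intestine (green) to that in the large intestine, on a log axis, for the 6 members with a value in the large library, with 95% intervals for counting error alone. Open circles are single alpha-defensin genes that have a value in the large library. The ratios run from 3387 for Mptx2 down to 6.55 for Pla2g2a, and Mmp7, Ang4 and Pla2g2a lie below all the open circles of their colour.

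**Figure D4:**
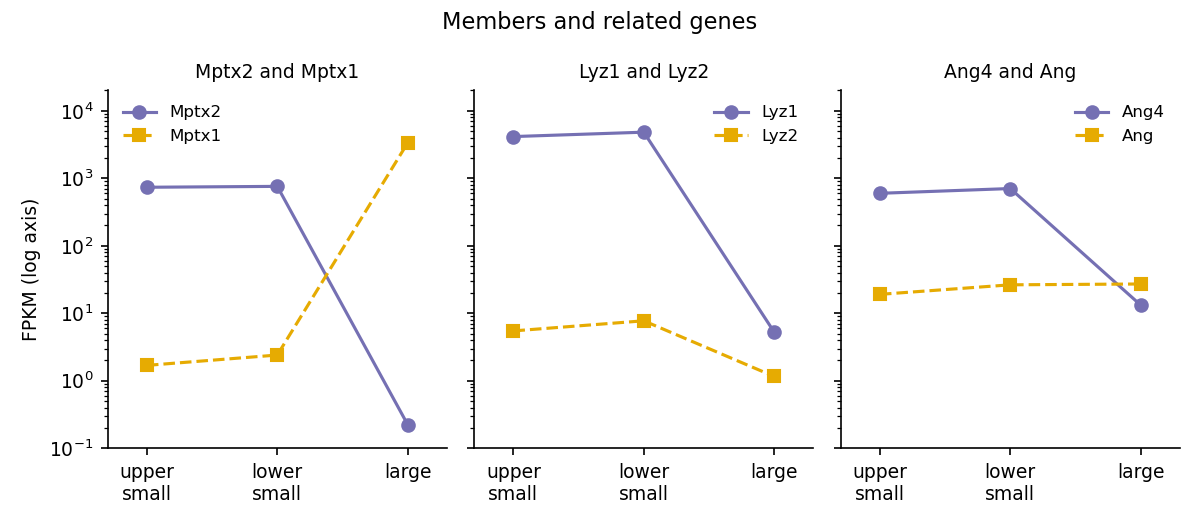
FPKM on a log axis in the upper small intestinal, lower small intestinal and large intestinal library for Mptx2 and Mptx1, Lyz1 and Lyz2, and Ang4 and Ang. The lines of Mptx2 and Mptx1 cross, with Mptx2 at 736, 759 and 0.224 FPKM and Mptx1 at 1.69, 2.40 and 3341 FPKM, while Ang stays between 19.0 and 27.1 FPKM.

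Within the small intestine the members differed little. Of 11941 genes measured in the upper or lower library, 6.84% passed the size rule in either direction and 2.92% were called lower in the upper library. Of the 7 members, 1 was called, Pla2g2a, which was lower in the upper library, at 31.7 FPKM against 71.8 FPKM. Its upper to lower ratio was 0.442 (0.352 to 0.550). The median member difference was -0.23, against -0.03 over all measured genes. Mmp7 came next, at 188 FPKM in the upper and 309 FPKM in the lower library, with a ratio of 0.608 (0.572 to 0.647). Lyz1 (0.861, 0.850 to 0.872) and Ang4 (0.850, 0.813 to 0.888) were slightly lower in the upper library, by more than counting error and by less than the size rule. Itln1 was slightly higher there, with a ratio of 1.11 (1.07 to 1.16). The intervals of Mptx2 (0.970, 0.933 to 1.01) and Habp2 (0.749, 0.507 to 1.07) included 1. With equal FPKM sums, upper minus lower on the log2(FPKM + 1) scale moved from 0.155 to 0.053 for Itln1. For Mptx2 it moved from -0.044 to -0.145. Which of the small differences exceed counting error thus depends on the scaling between libraries. Reads were implied from the shortest transcript, 661 nt for Habp2 against 2815 nt for its longest, so the Habp2 interval may be too wide. The same holds for Itln1 (422 against 1141 nt) and Pla2g2a (462 against 788 nt). For comparison, summed alpha-defensin FPKM had an upper to lower ratio of 0.837, and single alpha-defensin genes ranged between 0.199 and 2.45.

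**Figure D5:**
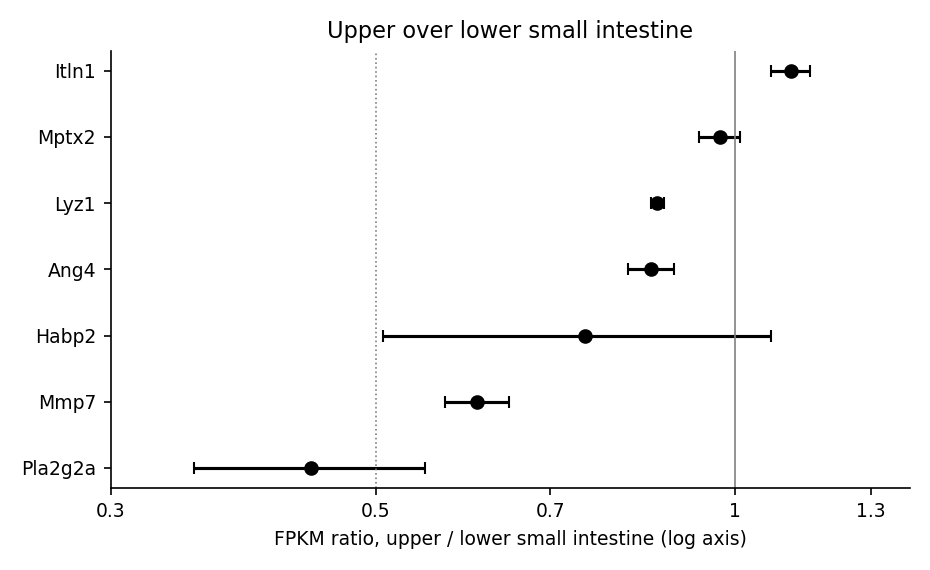
Ratio of FPKM in the upper over the lower small intestinal library for each member, on a log axis, with 95% intervals for counting error alone. The solid line marks equal values and the dotted line a ratio of 0.5. Pla2g2a lies lowest at 0.442 and Itln1 highest at 1.11.

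Set against Lyz1, which removes any scaling between libraries and leaves the order of the members as it was by construction, 4 of the 6 proportions had intervals that excluded 1. Relative to Lyz1, Pla2g2a in the upper library was at 0.513 of its lower value (0.409 to 0.639) and Mmp7 at 0.707 (0.664 to 0.753). Itln1 was at 1.29 (1.24 to 1.35) and Mptx2 at 1.13 (1.08 to 1.17). Ang4 kept its proportion to Lyz1 within counting error, at 0.987 (0.943 to 1.03), and the interval of Habp2, at 0.871 (0.589 to 1.25), included 1.

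A list drawn up for Paneth cell specification held 21 genes, among them Ctnnb1, Hnf4a and Cdx2, which are not particular to secretory cells. Of the 21, 2 were called higher and 8 lower in the upper than in the large library, with a median of -0.80. Over all measured genes 11.7% were higher and 11.2% lower, with a median of 0.00. Against the large library, 1 was higher and 7 lower in the lower library (median -0.24), beside 10.5% higher and 9.75% lower over all measured genes (median 0.00). In the upper than in the lower library, 1 was higher and 2 lower (median -0.36), beside 3.92% and 2.92% of all measured genes (median -0.03). With equal sums 11 and 8 of the 21 were lower in the upper and lower libraries than in the large one, beside 17.8% and 14.2% of all measured genes. Bhlha15 (Mist1), a transcription factor of secretory cells, was called higher in both small intestinal libraries, at 3.21 FPKM in the upper and 5.75 FPKM in the lower library, against 0.531 FPKM in the large library. Creb3l1, a membrane-bound transcription factor, was at 9.67 FPKM and 21.9 FPKM, against 108.8 FPKM in the large library, whereas its relative Creb3l2 was at 13.9 and 5.65 FPKM, against 2.73 FPKM. Spdef, a factor of goblet and Paneth cell maturation, was at 9.08 FPKM in the upper and 17.7 FPKM in the lower library, against 36.7 FPKM in the large library. Foxa1 was at 5.39, 15.5 and 32.7 FPKM, Foxa2 at 2.16, 1.85 and 13.5 FPKM, and Fgfr3, a receptor for fibroblast growth factors, at 8.57, 5.36 and 20.7 FPKM in the upper, lower and large libraries. Goblet cells use several of these genes as well. Of the 7 goblet cell markers, 0 were called higher and 3 lower in the upper than in the large library, and 1 higher and 1 lower in the lower than in the large library. Their values ran both ways, with Muc2 at 151, 330 and 1128 FPKM and Tff3 at 1835, 2215 and 992 FPKM in the upper, lower and large libraries.

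Of 23 measured genes from a list on Paneth cell signals and granule function, 4 were higher and 7 lower in the upper than in the large library (median -0.28), and 4 higher and 6 lower in the lower than in the large library (median -0.17). The shares over all measured genes were 11.7% higher and 11.2% lower in the first comparison and 10.5% higher and 9.75% lower in the second, with medians of 0.00. Between the upper and lower libraries 1 of 21 was higher and none lower (median -0.19). For that pair 3.92% of all measured genes were higher and 2.92% lower (median -0.03). With equal sums 9 and 7 of 24 were lower in the upper and lower libraries than in the large one, beside 17.8% and 14.2% of all measured genes. Guca2b, encoding uroguanylin, was at 1653 FPKM in the upper and 522 FPKM in the lower library, against 26.7 FPKM in the large library. Clps, encoding the lipase cofactor colipase, was at 221 and 132 FPKM, against 28.2 FPKM. Colipase is also a pancreatic product, and the 5 pancreatic acinar markers summed to 32.8 FPKM in the upper, 5.71 FPKM in the lower and 227 FPKM in the large library, with Cela1 the only one of the 5 not listed at 0 in the lower and large libraries. The part of pancreatic RNA in Clps was not tested. Wnt3, a niche signal of Paneth cells, singled out after its values were seen, was at 1.94 FPKM in the upper and 2.57 FPKM in the lower library and was listed at 0 in the large library. Other low genes of the same list went the other way and were called lower in both comparisons. Egf was at 0.303 and 0.443 FPKM in the upper and lower libraries, against 2.33 FPKM in the large library. Lrrk2 was at 0.141 and 0.157 FPKM, against 3.19 FPKM. Genes with higher values in the large library included Nupr1, at 36.0 and 57.5 FPKM in the upper and lower libraries, against 426 FPKM, and Sult1c2, a sulfotransferase, at 1.70 and 1.47 FPKM, against 46.1 FPKM. Kit, a receptor tyrosine kinase, was at 3.51 and 6.74 FPKM in the upper and lower libraries, against 17.5 FPKM in the large library. Ern2, an endoplasmic reticulum stress sensor of mucus-secreting cells, was at 9.21 and 16.4 FPKM, against 54.6 FPKM. Irgm1, an interferon-induced GTPase, was at 39.0 FPKM in the upper library, 73.6 FPKM in the lower library and 22.5 FPKM in the large library. Of 4 markers of deep crypt secretory cells of the colon, 3 were highest in the large library, namely Reg4 at 136, 24.0 and 265 FPKM, Retnlb at 0.514, 4.65 and 45.4 FPKM and Agr2 at 494, 1082 and 1660 FPKM in the upper, lower and large libraries. The fourth, Spink4, was at 1333, 2215 and 1335 FPKM in the same order. Spink4 and Agr2 are also in the goblet cell list.

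The genes whose values over the 3 libraries most resembled each member were found among 6976 protein-coding genes with at least 10 FPKM in 1 library, by Euclidean distance of centred log2(FPKM + 1) values. Lyz1 and Mptx2 were each other's closest gene, at a distance of 0.22, followed by Defa24 and Defa17 for both. That closeness rests on the 1 added to Mptx2's 0.224 FPKM, since with a pseudocount of 0.1 upper minus large was 9.60 for Lyz1 and 11.15 for Mptx2 on the log2 scale. Itln1 lay closest to Anpep, a brush-border peptidase (0.16), Defa26 (0.25) and Olfm4 (0.30), and Mmp7 to Enpep (0.43), Defa3 (0.51) and Slc6a19 (0.56). Ang4 lay closest to Gzmb (0.23), Maf (0.42) and Ccl5 (0.46). Pla2g2a lay closest to Tnfaip8l2 and H2-DMb1 (both 0.11) and Ciita (0.17), and Habp2 to Rbp7 (0.08), Slc13a1 (0.14) and Tnfaip8l3 (0.18). Among the members, Pla2g2a and Habp2 were 0.69 apart, Mptx2 and Itln1 0.71 and Lyz1 and Pla2g2a 5.28, the widest distance between members. With 3 libraries many genes lie close together, so these names describe likeness of level only.

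The 7 genes lie on 6 chromosomes, and Itln1 and Mptx2 are both on chromosome 1. Of the nearest or overlapping protein-coding genes, Lyz2 was called higher in both small intestinal libraries than in the large one. Ly9, beside Itln1, was called higher in the lower library alone, at 0.64, 1.24 and 0.056 FPKM in the upper, lower and large libraries, and Nrap was called lower in both. None of the neighbours named next passed the size rule against the large library. Cpsf6, the protein-coding neighbour of Lyz1 away from Lyz2, was at 13.6, 13.0 and 13.2 FPKM in the upper, lower and large libraries. Tmem123, next to Mmp7, was at 11.5, 16.6 and 11.8 FPKM, and Alyref2, next to Itln1, was at 5.42, 3.47 and 2.97 FPKM. The neighbours of Mptx2, Olfr418 and Ackr1, and those of Ang4, Gm5800 and AY358078, were below 1 FPKM in every library. These neighbours were taken by position alone.

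Because the members were high in the same libraries, their promoters were searched for the core letters bound by TCF factors of Wnt signalling, CTTTGA and CTTTGT, on both strands. RefSeq windows (GRCm38.p6) of 300 bases, from 250 before to 50 after the annotated start, were found for 6 members and not for Pla2g2a. Either motif was present in 4 of the 6, Lyz1, Mmp7, Mptx2 and Ang4, and in 31.3% of the windows of 27025 genes. The first listed start of each gene was used for these shares. By motif, CTTTGA was in 1 of the 6 (Mmp7) and 16.2% of all windows, and CTTTGT in 3 of the 6 and 18.7% of all windows. The 4 windows are shown 5′ to 3′ on the strand of the gene because they hold a match, which is in capitals, in its own or its reverse complement letters. For Mmp7, which has 2 annotated starts, the window of the first is shown, and that of the second also holds CTTTGT, at -186 from its own start.
Lyz1, chr10:117292819-117293118, minus strand: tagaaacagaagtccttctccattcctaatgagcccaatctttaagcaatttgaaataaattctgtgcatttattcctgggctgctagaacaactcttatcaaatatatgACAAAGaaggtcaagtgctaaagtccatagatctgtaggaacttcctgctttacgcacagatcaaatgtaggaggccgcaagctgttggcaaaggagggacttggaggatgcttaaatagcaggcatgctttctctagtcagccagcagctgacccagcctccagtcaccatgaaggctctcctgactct
Mmp7, chr9:7691840-7692139, plus strand: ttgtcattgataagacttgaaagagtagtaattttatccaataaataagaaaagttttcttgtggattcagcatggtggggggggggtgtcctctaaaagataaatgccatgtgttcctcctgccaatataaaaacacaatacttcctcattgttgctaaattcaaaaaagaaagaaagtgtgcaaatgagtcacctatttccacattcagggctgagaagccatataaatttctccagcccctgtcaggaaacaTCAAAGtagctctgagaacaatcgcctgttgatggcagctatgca
Mptx2, chr1:173277707-173278006, minus strand: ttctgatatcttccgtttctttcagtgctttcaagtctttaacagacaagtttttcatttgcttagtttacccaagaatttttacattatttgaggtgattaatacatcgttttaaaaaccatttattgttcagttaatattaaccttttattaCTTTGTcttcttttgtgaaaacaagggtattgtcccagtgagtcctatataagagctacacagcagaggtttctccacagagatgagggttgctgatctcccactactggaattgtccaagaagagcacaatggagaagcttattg
Ang4, chr14:51773541-51773840, minus strand: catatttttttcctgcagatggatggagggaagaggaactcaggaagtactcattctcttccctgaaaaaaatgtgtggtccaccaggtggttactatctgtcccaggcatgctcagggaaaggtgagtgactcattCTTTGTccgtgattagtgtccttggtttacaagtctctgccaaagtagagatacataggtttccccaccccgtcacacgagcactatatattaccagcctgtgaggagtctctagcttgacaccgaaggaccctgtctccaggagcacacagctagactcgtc
Counted from the start, with negative positions before it, the matches began at -140 in Lyz1, -96 in Mptx2, -113 in Ang4 and 5 in Mmp7. A match in these letters describes the window and shows no binding.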

How the data were processed

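RNA from epithelial cells of 3 regions of mouse intestine was sequenced, with 1 library per region and a stranded TruSeq mRNA kit, per the labels' protocols. The deposited files give 1 value per gene, taken here as FPKM. The unit was inferred, since per the file headers a column has a library name and no unit. The submitters' processing notes name TopHat2 2.0.13, Bowtie2 2.2.3, SAMtools 0.1.19, Cufflinks 2.2.1 and mm10, without roles or order. Annotation, read length, filters and strand setting are unknown, being not given in the sources used here. Median ratios to the geometric mean of the libraries were 0.999, 1.01 and 1.00 in upper, lower and large, while FPKM sums were 693218, 646262 and 521651, so the libraries share a common scale that is not explained in those sources.

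Coordinates came from GENCODE M21 (GRCm38), to which 23310 of 24346 names matched. Differences are of log2(FPKM + 1), and a gene was measured in a comparison when either library reached 1 FPKM. Counting error came from implied reads. For single-transcript genes of 1500 nt or longer, FPKM times length fell within 0.15 read of a whole number for 75.5%, 76.5% and 75.5% of 372, 371 and 359 low values, at steps of 0.138, 0.092 and 0.1195 FPKM per read per kb fitted to the same values. Whole reads were thus not recovered for enough genes, and no p-value from counts was computed. All intervals given above rest on these implied reads. They are approximate, also where they are said to exclude or include 1. Reads per gene used the shortest transcript, and PCR copies are not told apart, so reads can exceed molecules. Scripts used Python 3.11.15, scipy 1.17.1 and Biopython 1.88 and were tested on simulated data. The members, the gene lists and the rule for named genes were chosen with earlier results of these data known. From each list of specification and of niche and granule genes, up to 4 genes with the largest difference per comparison were named, and from the list of related genes those at 10 FPKM or called by size.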

Additional observations from a re-analysis of the deposited data

How the results depend on the processing

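No paired analysis was possible because each region has 1 library, and for the same reason no replicate could be left out. The alternatives were a pseudocount of 0.1 or 10, no filter or one of 5 FPKM, equal FPKM sums, a background without short RNA genes, and a log2 difference of 2. All 7 members stayed higher in both small intestinal libraries than in the large one under each of them, except that Habp2, at 0.96 for upper minus large, was not called with a pseudocount of 10. With that pseudocount the member medians were 4.71 for upper minus large and 4.94 for lower minus large. The single member called between the upper and lower libraries, Pla2g2a, was not called with a pseudocount of 10 or at a log2 difference of 2, so that 0 members were called there. With 0.1, all 21 member differences kept their sign and side of the size rule, as they did with equal sums, where 6 moved by more than counting error and the median of upper minus lower was -0.34. The result for lower minus large does not use the upper library, whose strain entry differs. Depth limits Mptx2, Mmp7 and Itln1 in the large library, which rest on about 1, 13 and 12 implied reads. Depth also limits Habp2, with 45 and 91 in the upper and lower libraries. The counts of Itln1 and Habp2 hold if the shortest transcript of each is the one expressed.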
